A study of Mus musculus with 12 samples.

Results

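The effect of Med1 knockout, as given by the genotype label, was compared between the ventral and lateral lobes of the mouse prostate. All 12 arrays of the series enter this comparison, 3 in each of 4 groups: wild-type ventral prostate, Med1 knockout ventral prostate, wild-type lateral prostate and Med1 knockout lateral prostate, all from mice at 16 weeks of age. The quantity examined was the interaction, the knockout minus wild-type difference of the ventral lobe minus the same difference of the lateral lobe, on the log2 scale of the array signal. A positive interaction means that the knockout level stood higher relative to wild type in the ventral than in the lateral lobe, and a negative one the reverse. Each of 18194 genes was represented by 1 probe set, the one with the highest mean over the arrays. The sample titles use MT for the mice that the genotype label calls Med1 knockouts. The sources used here do not give the way the gene was deleted, the cells in which it was deleted or the strain, nor whether both lobes came from the same animals or each array from a single animal. What the p-values measure is thus the spread among these 12 samples, part or all of which may be technical.

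Med1 is a subunit of Mediator, the complex that bridges DNA-bound transcription factors and RNA polymerase II. It carries the motifs through which nuclear receptors, the androgen receptor among them, contact the complex. The lobes of the mouse prostate are paired glands that share a luminal secretory epithelium, basal cells and a sheath of smooth muscle and fibroblasts, but they secrete different proteins and differ in how much stroma surrounds their ducts.

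The median signal of an array was 6.39 to 6.43 on the log2 scale for ventral and 6.05 to 6.06 for lateral tissue, and arrays of a group correlated at 0.992 or more. Med1 read 9.48, 9.52 and 9.29 in wild-type and 8.90, 8.99 and 8.68 in knockout ventral arrays, and 8.58, 8.74 and 8.23 against 8.40, 8.34 and 8.44 in lateral arrays. The ventral fall of Med1 passed the test and the lateral difference of -0.13 did not. The interaction itself was -0.44 ± 0.18 (SE) and missed the threshold (limma adjusted p = 0.136). Over the 7 probe sets of Med1 the ventral differences ran from -0.70 to -0.10. The lateral ones ran from -0.26 to 0.44, with both signs among them. In the lateral lobe the loss of Med1 thus rests on the genotype label and not on these signals. All 7 probe sets of Med1 gave an interaction of the same sign and 1 passed, and the mean of the 7 did pass, at -0.49 (limma adjusted p = 0.0132). Luminal keratins were high in every array, with Krt8 at 11.62 or more and Krt18 at 12.49 or more, and the mean over the 12 luminal markers measured stayed between 11.10 and 11.53 in all arrays. The Gapdh control signal at the end of the transcript exceeded that at its start by 1.74 to 2.22 log2 units in 11 arrays and by 2.67 in ventral knockout array 3. The seminal vesicle secretory genes Svs2 and Pate4 set 1 array of each of 2 groups apart. Svs2 read 2.80, 2.99 and 7.55 in wild-type ventral arrays and 11.89, 11.99 and 8.71 in knockout lateral arrays, and Pate4 read 2.68, 2.66 and 6.58, and 11.11, 11.35 and 8.26. Counts are therefore also given without both of these arrays, wild-type ventral array 3 and knockout lateral array 3.

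The interaction passed at a limma adjusted p under 0.05 for 1693 genes, 9.31% of those tested. It was positive for 1184 (6.51%) and negative for 509 (2.8%). Without the 2 arrays named above 973 genes passed, 733 higher and 240 lower. Among the passing genes, 320 had a positive and 80 a negative interaction of at least 1 log2 unit, and 36 and 15 reached 2 units. The median interaction over all genes was -0.02 and its median standard error was 0.154. The passing genes fell into 5 patterns by what each lobe showed on its own at the same threshold. In 150 genes, 0.824% of those tested, both lobes were called and the directions were opposite, 141 of them higher in the ventral and lower in the lateral knockout and 9 the reverse. A ventral call without a lateral one was found in 712, a lateral call without a ventral one in 428, calls of the same direction but unequal size in 13, and no call in either lobe in 390. The count of opposite calls was 72 without the 2 arrays, and between 73 and 98 when any 1 of 5 of the 6 lateral arrays was left out. It was 163 without the remaining one, knockout lateral array 1, and 100 to 159 when single ventral arrays were left out.

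**Figure D1:**
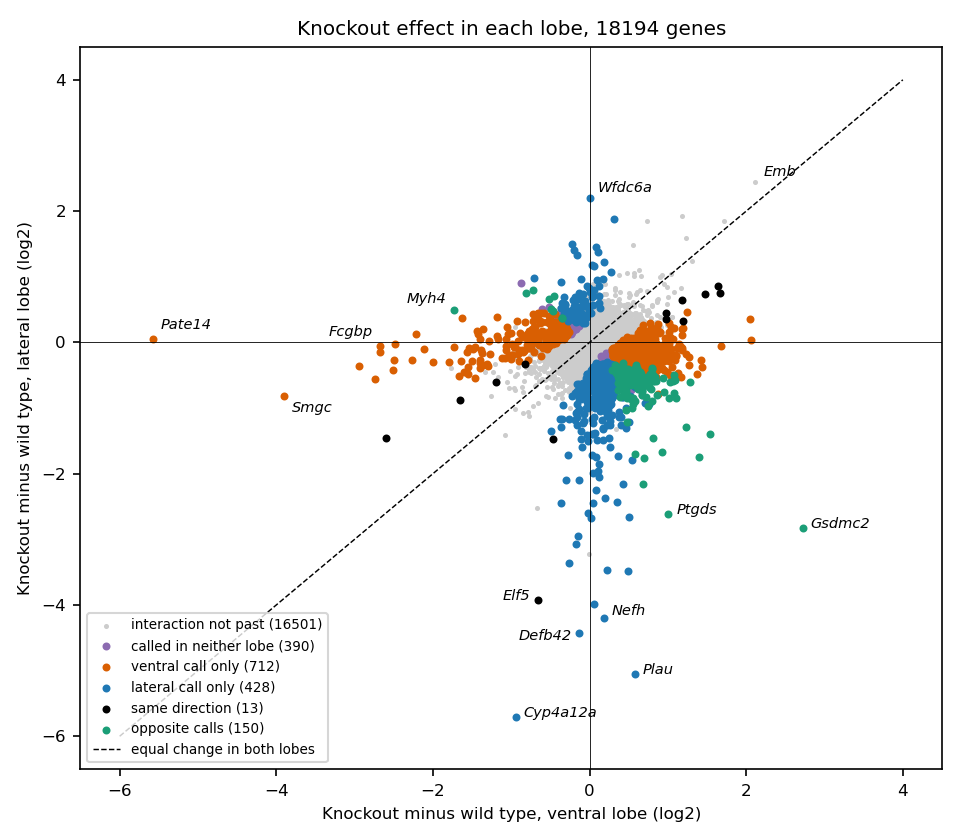
Knockout minus wild-type difference of each gene in the ventral lobe (x axis, log2) and the lateral lobe (y axis, log2), each point 1 gene, coloured by which lobe's own difference passed among the 1693 genes whose interaction passed. Genes on the dashed line changed equally. The 150 opposite calls lie mostly in the lower right, the quadrant of ventral rise and lateral fall, and Emb is an example close to the line.

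Genes called in opposite directions were led by Gsdmc2, a gasdermin, one of a family of pore-forming proteins. It read 4.39, 5.18 and 4.55 in wild-type and 7.66, 7.24 and 7.39 in knockout ventral arrays, and 6.30, 6.64 and 6.15 in wild-type and 2.58, 4.13 and 3.90 in knockout lateral arrays. The knockout arrays thus lay above all wild-type arrays in one lobe and below all of them in the other, with wild-type ventral and knockout lateral means at low signal. Gsdmc2 rose at least 6.61-fold in the ventral and fell at least 7.10-fold in the lateral lobe (interaction 5.55 ± 0.45, SE; limma adjusted p = 8.45e-06). Close relatives of this gene share sequence, so its probe set may also read them. Ces1d, a carboxylesterase that hydrolyses lipid esters, read 7.89, 8.25 and 7.68 against 9.26, 9.18 and 9.58 in the ventral lobe and 9.97, 9.78 and 9.99 against 8.20, 8.26 and 8.03 in the lateral lobe. Its interaction was 3.15 ± 0.20 (limma adjusted p = 6.79e-07), all 3 of its probe sets passed, and the order of the lobes turned: lateral was higher in wild type and ventral in knockout. Ptgds, which makes prostaglandin D2, read 5.36, 5.41 and 5.90 against 7.31, 6.36 and 6.02 in the ventral lobe. In the lateral lobe Ptgds fell from 8.45, 8.46 and 8.47 to 6.07, 5.84 and 5.64, an interaction of 3.62 ± 0.35 (limma adjusted p = 3.27e-05).

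Bex4, a small adaptor-like protein of the brain-expressed X-linked family, rose by 1.54 in the ventral and fell by 1.40 log2 units in the lateral lobe. Alox5ap, the protein that presents arachidonic acid to 5-lipoxygenase, rose by 0.69 in the ventral lobe and fell by 2.16 in the lateral lobe. Cyp1b1, a cytochrome P450 of steroid and eicosanoid metabolism, rose by 0.78 and fell by 0.71. Clca1, a secreted regulator of chloride channels, rose by at least 1.23 in the ventral lobe from low signal, with both lateral groups at low signal, and its second probe set did not pass. Over the 141 genes of this direction (0.775% of those tested) the ventral median was 0.59 and the lateral one -0.58. In wild type 105 of them were higher in the lateral lobe, by a median of 0.61 over the 141, and in knockout the median lateral minus ventral level was -0.66. The interaction is the wild-type gap minus the knockout gap, so choosing genes by a positive interaction sets these gaps apart. Their opposite order at the median is therefore not a separate result. The share of all genes higher in the wild-type lateral lobe was not counted, and lobe levels rest on values that look normalised in separate runs. Differences of at least 1 log2 unit in both lobes were limited to 5 of the 141.

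Only 9 genes (0.0495%) were called the other way round, lower in the ventral and higher in the lateral knockout. Myh4, a fast skeletal muscle myosin, read 6.58, 6.42 and 6.70 against 4.85, 4.90 and 4.77 in the ventral lobe and 4.08, 4.07 and 4.07 against 4.64, 4.71 and 4.36 in the lateral lobe. Its interaction was -2.22 ± 0.14 (limma adjusted p = 8.98e-07), with the wild-type lateral mean at low signal. Chodl, a membrane lectin, fell by 0.81 in the ventral lobe, where its wild-type arrays read 7.20, 7.32 and 7.55, and rose by 0.75 in the lateral lobe. Qsox1, an oxidase that forms disulfide bonds in secreted proteins, fell by 0.49 and rose by 0.50, and all 4 of its probe sets gave a negative interaction. Erdr1 fell by 0.46 and rose by 0.70, and the kallikrein Klk1b24, one of a cluster of closely similar genes, fell by 0.52 and rose by 0.67. Of 11 skeletal muscle genes measured, 3 had a positive and 2 a negative interaction, beside 6.51% and 2.8% of all genes, and Tnnc2 and Acta1 went against Myh4, at 1.22 and 0.88.

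**Figure D2:**
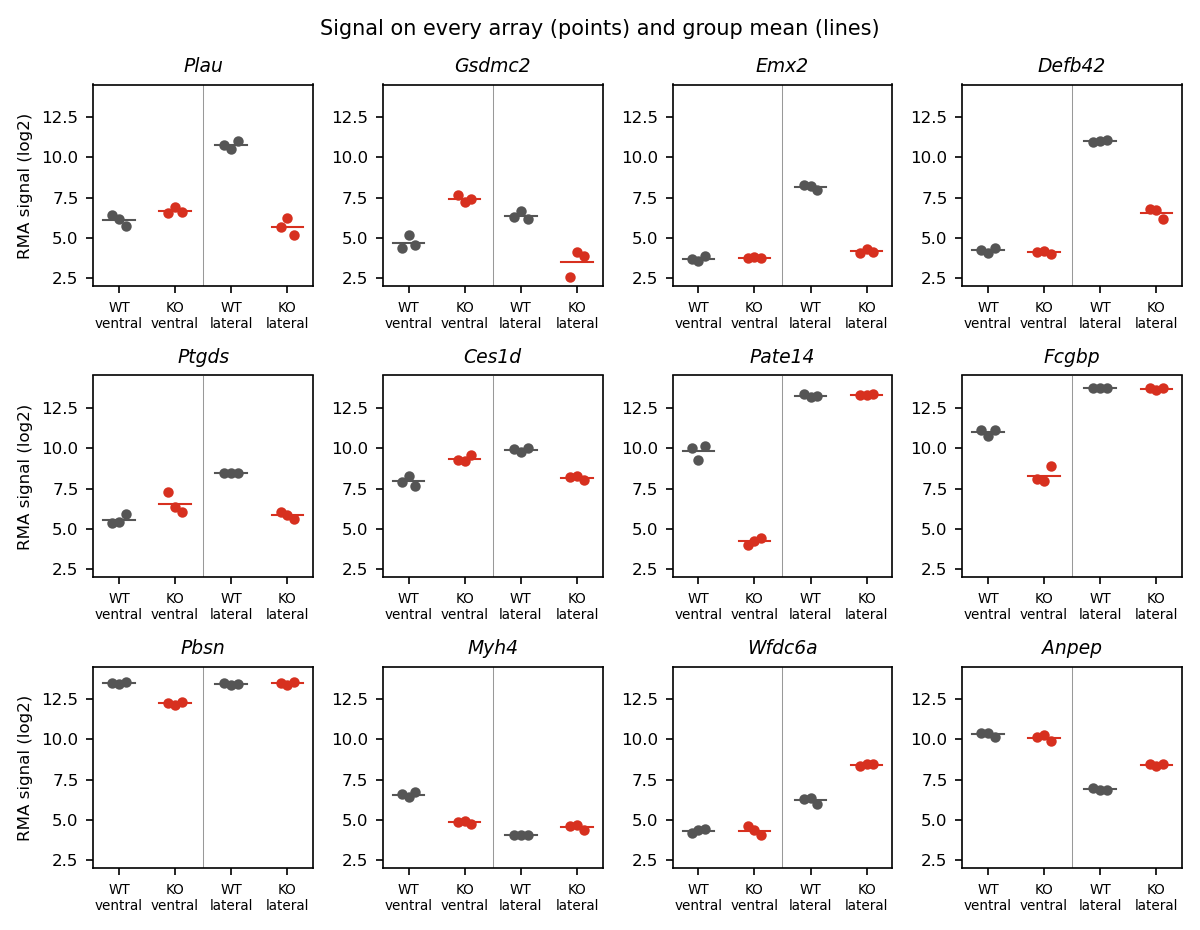
RMA signal (y axis, log2) of 12 genes on each of the 12 arrays, with wild type (WT) in grey, Med1 knockout (KO) in red, points for single arrays and lines for group means. Gsdmc2, Ptgds and Ces1d stand higher in ventral and lower in lateral knockout, Emx2 and Defb42 fall in the lateral lobe, where wild type was high, and Fcgbp and Pate14 stay above 13 in both lateral groups.

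Smooth muscle genes stood higher in the ventral and lower in the lateral knockout. Of 16 measured, 15 passed with a positive interaction and 0 with a negative one, beside 6.51% of all genes, and the median interaction was 0.77. Without the 2 arrays named above 12 passed, and with any single array left out 11 to 15. In the ventral lobe 9 of these genes were called higher (5.88% of all genes) and 0 lower (3.2%), and in the lateral lobe 8 were called lower (3.42% of all genes) and 0 higher (1.62%). Actg2, the enteric smooth muscle actin, read 8.71, 8.39 and 8.68 against 9.75, 9.56 and 9.57 in the ventral lobe and 11.31, 11.12 and 11.30 against 10.81, 10.39 and 10.72 in the lateral lobe. The genotypes did not overlap in either lobe, and the interaction was 1.63 ± 0.17 (limma adjusted p = 7.00e-05). Synpo2, an actin-bundling protein of the muscle Z-line, read 8.69, 8.03 and 8.23 against 9.45, 9.34 and 9.66 in the ventral lobe, a rise of 1.17. Its lateral difference of -0.53 did not pass, and all 4 of its probe sets passed the interaction. Cnn1, the calponin that binds actin in contractile smooth muscle, rose by 0.64 and fell by 0.44, and Synm, an intermediate filament protein, rose by 0.36 and fell by 0.73. Averaged over the list, wild type read 9.91 to 10.16 in the ventral and 11.15 to 11.27 in the lateral arrays. Knockout read 10.39 to 10.61 and 10.61 to 10.90, so the gap between the lobes was narrower in the knockout. These are whole-lobe extracts, in which fewer cells of a type and less RNA per cell cannot be told apart. The mean over the 12 luminal markers read, wild type against knockout in the same arrays, 11.47 to 11.53 against 11.43 to 11.49 in the ventral and 11.12 to 11.19 against 11.10 to 11.18 in the lateral lobe.

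Most fibroblast and matrix genes also had a positive interaction. Of 21 measured, 14 passed as positive and 1 as negative, beside 6.51% and 2.8% of all genes, with a median of 0.77, and 12 and 0 passed without the 2 arrays. Pdgfra, the receptor that marks fibroblasts, read 7.83, 7.48 and 7.53 against 8.25, 8.12 and 8.47 in the ventral lobe and 7.34, 7.24 and 7.25 against 6.70, 6.38 and 6.51 in the lateral lobe. Its interaction was 1.41 ± 0.17 (limma adjusted p = 1.87e-04), with calls in both lobes. Col1a2, a chain of type I collagen, rose by 0.58 and fell by 0.46, though the call was lost when its most variable probe set stood for the gene. Thy1 rose by 0.62 and fell by 0.60. Lum, the collagen-binding proteoglycan lumican, fell by 1.21 in the lateral lobe, and its ventral difference of 0.50 did not pass. Col6a3, a chain of type VI collagen, was the exception, falling by 1.19 in the ventral and by 0.60 in the lateral lobe (interaction -0.59 ± 0.15; limma adjusted p = 0.0296), and it lost the call when some single arrays were left out. Mgp, a matrix protein that inhibits calcification and stands on another list, rose by 0.61 in the ventral lobe and fell by 0.68 in the lateral lobe.

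In the list of Wnt, Hedgehog, TGF-beta and FGF signalling genes 11 of 38 passed with a positive and 0 with a negative interaction, beside 6.51% and 2.8% of all genes. The median was 0.40, 9 of the 38 estimates were negative, and 8 passed without the 2 arrays. Lgr5, a receptor for R-spondins that marks stem cells in several epithelia, read 7.46, 7.47 and 7.36 against 8.20, 8.20 and 9.03 in the ventral lobe. Its lateral difference of -0.37 did not pass, and the interaction was 1.42 ± 0.26 (limma adjusted p = 0.00347). Hhip, a decoy receptor for Hedgehog ligands, read 6.81, 6.70 and 6.83 against 7.46, 7.42 and 7.36, and 8.12, 7.95 and 7.94 against 7.56, 7.45 and 7.56 in the lateral lobe, and all 4 of its probe sets passed. Ptch1, the Hedgehog receptor and a target of the pathway, rose by 0.41 and fell by 0.39 on its brightest probe set, while its other 2 probe sets gave the opposite sign without passing. Tgfb3, a TGF-beta ligand, rose by 0.57 and fell by 0.40. Of 14 basal markers 5 passed with a positive interaction (6.51% of all genes) and 0 with a negative one (2.8%), 3 of the 14 estimates were negative, and 3 passed without the 2 arrays. Krt5, the basal keratin, fell by 0.47 in the lateral lobe with a ventral difference of 0.25 that did not pass, and Bcl2, which restrains apoptosis, rose by 0.36 and fell by 0.39 with all 5 of its probe sets passing. Cav1, the caveolar coat protein, rose by 0.77 and fell by 0.50, and smooth muscle and endothelium express it as well as basal cells. The smooth muscle list means given above moved with these groups, and their part in the result was not tested.

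**Figure D3:**
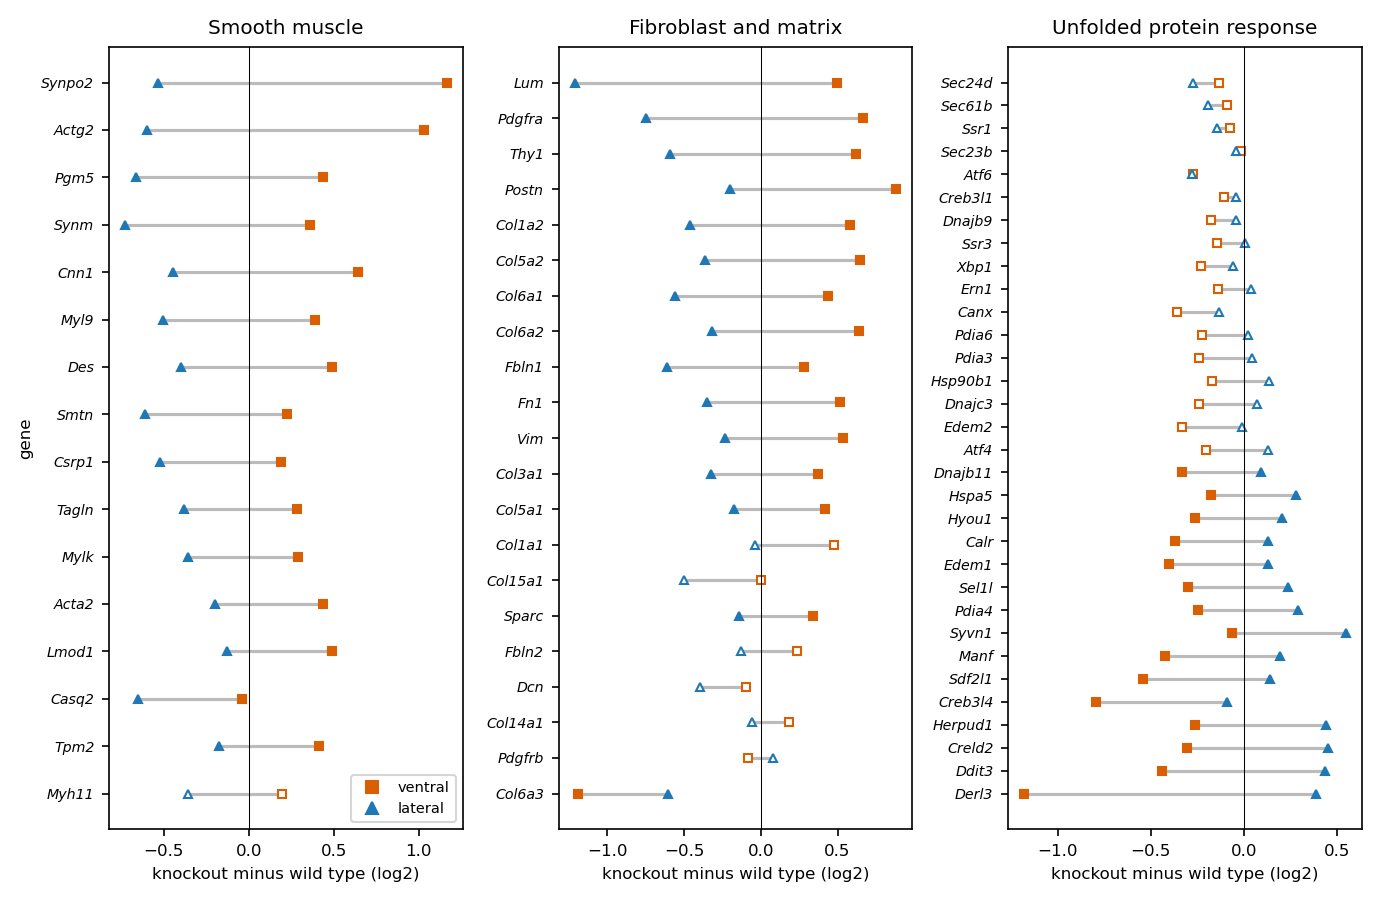
Knockout minus wild-type difference (x axis, log2) in the ventral lobe (orange squares) and lateral lobe (blue triangles) for every measured gene of 3 lists, ordered by interaction, with filled marks where the interaction passed. The 16 smooth muscle genes and 19 of 21 fibroblast genes have the ventral mark to the right of the lateral one, and 27 of 32 unfolded protein response genes have it to the left.

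Of the 14 largest positive interactions 9 were of genes that fell in the lateral lobe and were not called in the ventral lobe, a pattern of 316 genes. Of the other 5, Gsdmc2, Ptgds, Ces1d and Bex4 were called in opposite directions and Elf5 in the same direction. Plau, the urokinase plasminogen activator, a secreted serine protease, read 10.77, 10.50 and 10.97 in wild-type and 5.68, 6.22 and 5.16 in knockout lateral arrays. In the ventral lobe it read 6.42, 6.18 and 5.72 against 6.54, 6.89 and 6.62. The knockout lateral arrays thus overlapped the wild-type ventral ones and lay below the knockout ventral ones. Levels of the lobes look normalised in separate runs, which limits this comparison. The lateral fall was 33.2-fold and the interaction 5.63 ± 0.33 (limma adjusted p = 3.30e-07), with both probe sets passing. Emx2, a homeobox factor of the developing urogenital tract, read 8.28, 8.22 and 7.96 against 4.04, 4.30 and 4.16 in the lateral lobe, a fall of at least 15.9-fold. Its 6 ventral arrays all read between 3.54 and 3.91, at low signal. Defb42, a beta-defensin, fell from 10.94, 11.01 and 11.04 to 6.78, 6.74 and 6.19, and Nefh, the heavy neurofilament chain, from 8.24, 8.34 and 8.62 to 4.19, 4.40 and 4.03. Cyp4a12a, a fatty acid omega-hydroxylase with a near-identical copy in the genome, read 9.47, 9.30 and 9.56 against 4.52, 4.14 and 2.56. Defb42, Nefh and Cyp4a12a were at low signal in both ventral groups. For Cyp4a12a the knockout ventral arrays, at 2.89, 2.69 and 2.98, still lay below the wild-type ones, at 4.25, 3.41 and 3.74, a difference of -0.94 that did not pass (limma adjusted p = 0.122). Both ventral groups were at low signal in 54 of the 316 genes (17.1%). The same share over all genes was not counted, so this is not read as a trait of the pattern.

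Other genes fell in the lateral lobe while their ventral signal lay above the low-signal mark. Cdo1, which oxidises cysteine on the way to taurine, read 12.44, 12.37 and 12.50 against 9.21, 9.29 and 8.42 in the lateral lobe. In the ventral lobe Cdo1 read 8.54, 8.61 and 9.38 against 9.14, 9.05 and 9.01, and the interaction was 3.69 ± 0.31 (limma adjusted p = 1.13e-05). Nr4a3, an orphan nuclear receptor induced by signalling, fell from 8.78, 8.55 and 8.88 to 6.32, 5.99 and 5.91, with a ventral difference of 0.51 that did not pass. Ccnd1, cyclin D1, fell by 1.46 in the lateral lobe from 10.17, 10.08 and 10.42, and its ventral arrays read 9.08, 9.11 and 9.08 against 9.39, 9.37 and 9.24. Lcn2, an iron-binding lipocalin of innate defence, fell by 1.74, and Elovl6, a fatty acid elongase, by 1.79, each with no ventral call. Foxi1, the factor that specifies proton-secreting cells, fell by 2.96 or more in the lateral lobe and was an exception, with ventral signal low. Slc2a4, an insulin-regulated glucose transporter, fell by 0.78, and Sgk1, a kinase that acts on ion transport, by 0.77. Over the 316 genes the lateral median was -0.66 and the ventral median 0.16. In wild type 215 of the 316 were higher in the lateral than in the ventral lobe. The same held for 633 of the 1184 genes with a positive and 95 of the 509 with a negative interaction. The share over all genes was not counted, and lobe levels look normalised in separate runs. Choosing genes by a lateral fall also favours a high wild-type lateral level, so this count is not a separate result.

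Hox genes and seminal vesicle secretory genes were part of the lateral losses. Of 33 Hox genes 9 passed with a positive interaction and 0 with a negative one, beside 6.51% and 2.8% of all genes, and 6 and 0 without the 2 arrays. In the lateral lobe 9 of the 33 were called lower (3.42% of all genes) and 1 higher (1.62%). Hoxd9 read 8.79, 8.77 and 8.93 against 7.01, 6.92 and 6.58 in the lateral lobe and 6.23, 6.60 and 6.17 against 6.56, 6.28 and 6.30 in the ventral lobe, an interaction of 2.04 ± 0.19 (limma adjusted p = 2.55e-05). Its neighbour Hoxd8 fell by 1.70 in the lateral and rose by 0.58 in the ventral lobe, and Hoxb3 fell by 0.80 in the lateral lobe with a ventral difference of -0.04. Hoxd13, which takes part in shaping the prostate, fell by 0.43, with a ventral difference of 0.24 that did not pass. Svs4, a seminal vesicle secretory protein, read 11.98, 11.91 and 12.06 against 8.76, 8.44 and 8.28 in the lateral lobe, and its ventral arrays read between 2.57 and 3.96. Svs6, Svs3a and Sva fell by 2.43, 1.47 and 1.12 in the lateral lobe, also with low ventral signal, and Svs5 by 3.36, from 13.74, 13.70 and 13.76 to 11.02, 11.03 and 9.06. The Svs5 call was lost when its 5 probe sets were averaged or the most variable one stood for it, and 3 of the 5 did not pass on their own. Of 9 measured seminal vesicle genes 6 passed with a positive interaction, beside 6.51% of all genes. Svs2 and Pate4 did not (limma adjusted p = 0.445 and 0.131), and they are the genes that set apart wild-type ventral array 3 and knockout lateral array 3. The mean over the 9 genes was 9.43 to 9.56 in wild-type and 6.86 to 7.87 in knockout lateral arrays. These markers of a neighbouring gland fell together with Plau, Emx2, Defb42, Nefh and Hoxd9, and their part in those results was not tested. Without the 2 arrays 7 of the 9 passed.

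**Figure D4:**
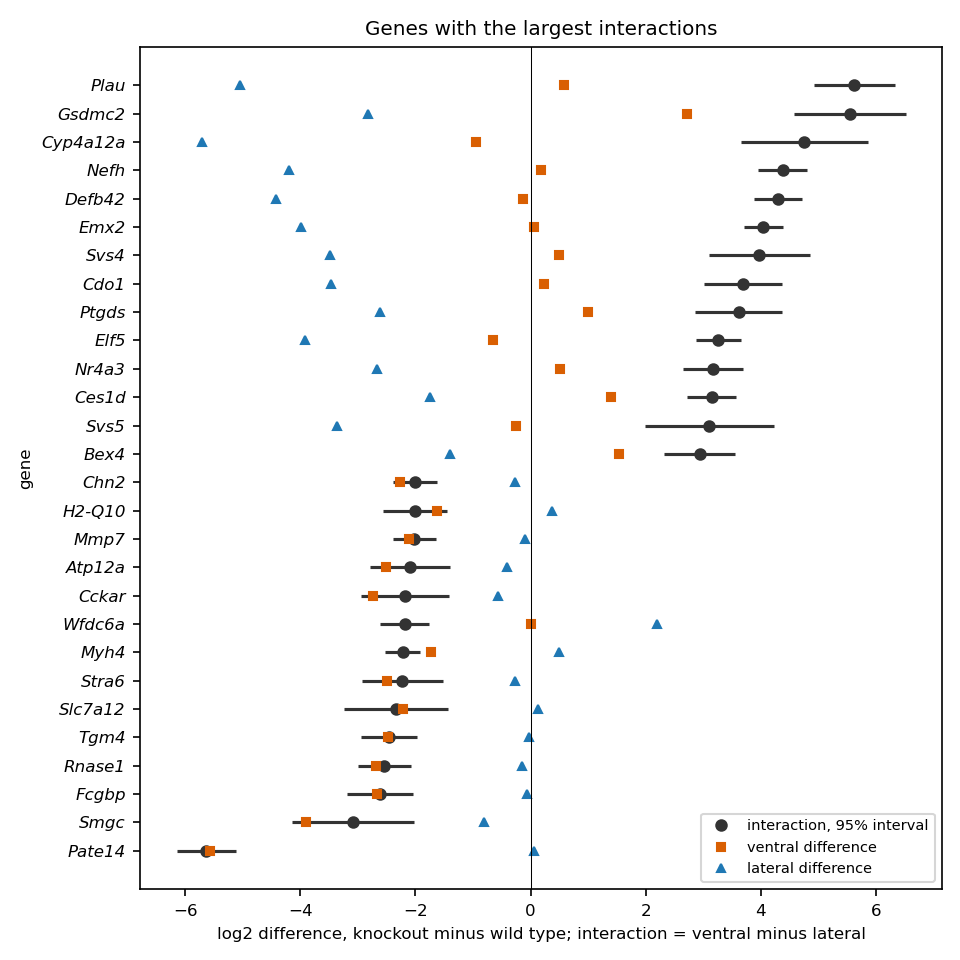
The 14 largest positive and 14 largest negative interactions among named genes past the threshold (black circles with 95% confidence intervals), with the ventral (orange squares) and lateral (blue triangles) differences, all in log2 units. All 14 positive interactions have the lateral mark left of 0, and those of Gsdmc2, Ptgds, Ces1d and Bex4 also have the ventral mark at 1 or more, and all the negative ones but Wfdc6a from ventral marks left of 0 with a lateral mark within 1 unit of 0.

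Of the 14 largest negative interactions 12 were of genes that fell in the ventral lobe and were not called in the lateral lobe, several secreted products among them. Pate14, a small secreted protein of the male tract, read 10.01, 9.29 and 10.11 in wild-type and 4.03, 4.24 and 4.42 in knockout ventral arrays. In the lateral lobe it read 13.33, 13.17 and 13.25 against 13.29, 13.28 and 13.35, groups that overlap. The ventral fall was at least 47.8-fold and the interaction -5.63 ± 0.24 (limma adjusted p = 1.75e-08). Fcgbp, a mucin-like protein of mucosal secretions, read 11.10, 10.74 and 11.10 against 8.07, 7.94 and 8.90 in the ventral lobe and between 13.58 and 13.74 in all 6 lateral arrays. Tgm4, the prostate transglutaminase that crosslinks the copulatory plug, read 11.20, 10.78 and 11.21 against 8.40, 8.31 and 9.03 and stayed between 13.56 and 13.61 in the lateral lobe. Rnase1, a secreted ribonuclease, fell 6.42-fold in the ventral lobe from 11.37, 11.24 and 12.00, and Mmp7, a protease that activates defensins, fell by 2.12. Lateral signals of Pate14, Fcgbp, Tgm4, Rnase1 and Mmp7, and of Defb1 described further on, lie above the 99th percentile of the lateral arrays, 11.9, close to the top of the scale. That held for 10 of the 223 genes with this pattern. Chn2, a Rac-directed GTPase activator, lay under that level in the lateral lobe, at 10.82, 10.93 and 10.82 against 10.63, 10.55 and 10.58. In the ventral lobe Chn2 read 6.95, 6.56 and 7.18 against 4.53, 4.66 and 4.68, a knockout mean at low signal and so a fall of at least 4.83-fold.

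Of 25 prostate secretory products measured, 12 had a negative and 3 a positive interaction, beside 2.8% and 6.51% of all genes, and 10 and 3 without the 2 arrays. The list was drawn up with the losses of the ventral lobe known, so its direction is not independent evidence. Its positive members were Lcn2, Wfdc15b and Acpp, the last 2 named after their values were seen. Smgc, a submandibular and prostate mucin-like product, read 8.14, 7.90 and 9.19 against 3.73, 4.48 and 5.33 in the ventral lobe, a knockout mean at low signal, and its lateral difference of -0.81 did not pass. Lists of transport genes were divided in direction: of 27 genes of epithelial ion and water transport 4 had a positive and 3 a negative interaction, and of 31 amino acid, sugar and zinc transporters 6 and 3, beside 6.51% and 2.8% of all genes. Among their negative members Atp12a, a proton and potassium pump, fell by 2.51 in the ventral lobe, Slc30a2, a zinc exporter into vesicles, by 1.80, and Slc7a12, an amino acid transporter, by 2.22 or more. Stra6, the membrane receptor for retinol-binding protein, read 7.14, 7.19 and 8.18 against 5.37, 4.77 and 4.88, and Gata2, a factor that opens chromatin for the androgen receptor, fell by 1.37 with both probe sets passing. Cckar, a cholecystokinin receptor, fell by 2.74 or more, and H2-Q10, a secreted class I molecule, by 1.63. Defb1, a constitutive defensin, fell by 0.99. None of these 9 genes was called in the lateral lobe.

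Probasin, the androgen-dependent secretory protein whose promoter is widely used to direct transgenes to prostate epithelium, was among them. Pbsn read 13.50, 13.41 and 13.57 against 12.25, 12.10 and 12.28 in the ventral lobe and 13.50, 13.34 and 13.44 against 13.47, 13.36 and 13.52 in the lateral lobe. The ventral fall was 2.43-fold and the interaction -1.31 ± 0.12 (limma adjusted p = 2.59e-05), with 3 of its 4 groups above the 99th percentile of their lobe's arrays. Its RefSeq promoter (GRCm38.p6, chrX:77853451-77853750, minus strand, 250 bases before to 50 after the start) is shown because an androgen-regulated gene responded in 1 lobe and not the other. Capitals mark the steroid receptor half-site AGAACA, searched on both strands. Only these exact letters were searched, so any longer or divergent androgen receptor element in the sequence is left unmarked. The mark does not show where the receptor binds, and its part in the lobe difference was not tested.
Pbsn: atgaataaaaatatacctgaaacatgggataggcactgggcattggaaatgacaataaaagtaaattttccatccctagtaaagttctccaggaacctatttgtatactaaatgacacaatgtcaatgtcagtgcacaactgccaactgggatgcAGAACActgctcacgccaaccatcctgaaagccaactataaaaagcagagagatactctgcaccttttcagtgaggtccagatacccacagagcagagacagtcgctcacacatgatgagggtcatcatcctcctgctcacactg
The half-site lies 95 to 90 bases before the start. It is common: 19.0% of 32851 promoters of this length hold it on either strand. Of the 2454 measured genes with it, 135 had a positive and 82 a negative interaction (3.34% lower, beside 2.8% of all genes). In the wider list of androgen-response genes 5 of 42 had a positive interaction (6.51% of all genes) and 1, Pbsn, a negative one (2.8%), with a median of 0.00 that changes sign with scaling. With single arrays left out 1 to 5 were positive, and without the 2 arrays 1. Sgk1, named above, was 1 of the 5.

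Genes of the unfolded protein response, which enlarges the folding and disposal capacity of the endoplasmic reticulum in secretory cells, also had negative interactions, though smaller ones. Of 32 measured, 15 passed as lower and 0 as higher, beside 2.8% and 6.51% of all genes, with a ventral median of -0.24 and a lateral one of 0.08. In the ventral lobe 9 were called lower (3.2% of all genes) and in the lateral lobe 3 were called higher (1.62%). The count was 5 without the 2 arrays and 9 without wild-type lateral array 3, and 27 of 32 estimates were negative. Derl3, a channel component of endoplasmic reticulum-associated degradation, read 10.08, 10.35 and 10.50 against 9.05, 9.04 and 9.31 in the ventral lobe and 10.67, 10.80 and 10.59 against 11.11, 11.04 and 11.09 in the lateral lobe. The arrays did not overlap in either lobe, and the interaction was -1.57 ± 0.16 (limma adjusted p = 4.90e-05). Creld2, a secreted disulfide isomerase, rose by 0.46 in the lateral lobe with a ventral difference of -0.30 that did not pass. Sdf2l1, a chaperone cofactor, fell by 0.54 in the ventral lobe, and Sel1l, the scaffold of the degradation complex, fell by 0.30 with 4 of its 5 probe sets passing the interaction. The secretory products described before fell in the same ventral arrays, and the part of either group in the other was not tested.

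Several of these genes are textbook targets of the factors ATF6 and XBP1 through the endoplasmic reticulum stress response element, CCAAT and CCACG separated by 9 bases of any kind. Promoters were searched for it on both strands (RefSeq, GRCm38.p6, 250 bases before to 50 after the start), and 39 of 32851 held it, 0.119%. Among the 28 list members with a promoter in the table, 9 held it. Of these 9, 5 passed with a negative interaction (Derl3, Creld2, Syvn1, Calr and Hspa5), as did 8 of the 19 without it. Of 11 other measured genes with the element, 1 had a negative and 2 a positive interaction. A match is a description of these letters and not of binding. The promoters of 4 members that passed are printed to show the element, in capitals, at its different distance and strand.
Derl3: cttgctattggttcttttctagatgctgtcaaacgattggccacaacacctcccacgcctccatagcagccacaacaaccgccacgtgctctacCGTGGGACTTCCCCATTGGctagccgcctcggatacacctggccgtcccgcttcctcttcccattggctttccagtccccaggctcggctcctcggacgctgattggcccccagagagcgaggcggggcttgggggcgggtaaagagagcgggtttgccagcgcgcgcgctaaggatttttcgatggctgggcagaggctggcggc
Creld2: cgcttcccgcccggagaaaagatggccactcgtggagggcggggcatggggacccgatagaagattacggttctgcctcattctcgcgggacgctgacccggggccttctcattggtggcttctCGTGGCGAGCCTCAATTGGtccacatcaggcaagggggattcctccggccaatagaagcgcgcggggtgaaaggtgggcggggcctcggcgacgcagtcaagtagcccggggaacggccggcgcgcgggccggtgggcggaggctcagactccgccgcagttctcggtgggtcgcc
Syvn1: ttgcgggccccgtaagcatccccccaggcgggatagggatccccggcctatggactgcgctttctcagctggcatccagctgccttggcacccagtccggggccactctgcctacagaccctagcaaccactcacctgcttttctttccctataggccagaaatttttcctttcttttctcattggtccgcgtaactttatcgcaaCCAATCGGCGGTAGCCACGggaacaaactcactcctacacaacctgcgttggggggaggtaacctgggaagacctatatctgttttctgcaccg
Hspa5: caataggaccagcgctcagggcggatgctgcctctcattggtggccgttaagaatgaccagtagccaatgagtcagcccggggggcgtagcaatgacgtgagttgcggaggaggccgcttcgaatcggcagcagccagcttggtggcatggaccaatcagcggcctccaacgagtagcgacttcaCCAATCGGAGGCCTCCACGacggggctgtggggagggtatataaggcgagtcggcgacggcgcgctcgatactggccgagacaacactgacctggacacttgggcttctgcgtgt
They lie at chr10:75893148-75893447, chr15:88819396-88819695, chr19:6046326-6046625 and chr2:34771840-34772139, all on the plus strand. The element is on the opposite strand in Derl3, 156 to 138 bases before the start, and in Creld2, 126 to 108 bases before it. It is on the same strand in Syvn1, 44 to 26 bases before the start, and in Hspa5, 65 to 47 bases before it. Interactions were -1.57 for Derl3, -0.76 for Creld2, -0.61 for Syvn1, a ubiquitin ligase, and -0.46 for Hspa5, the chaperone BiP. Syvn1, Calr and Hspa5 were named after their values were seen.

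A further 489 genes rose in the ventral lobe and were not called in the lateral lobe. Plscr2, a phospholipid scramblase, read 5.04, 5.37 and 4.86 against 7.10, 7.08 and 7.30 in the ventral lobe, with both lateral groups at low signal. Its interaction was 2.03 ± 0.23 (limma adjusted p = 1.04e-04). Adam7, a metalloprotease-like protein of the epididymis and male tract, read 5.99, 6.30 and 5.91 against 7.70, 7.63 and 7.90 in the ventral lobe, again with low lateral signal. Chl1, a neural adhesion molecule, rose by 1.43 in the ventral lobe with a lateral difference of -0.37 that did not pass. Of the 489 genes 28 had both lateral groups at low signal (5.73%), a share not counted over all genes. The medians were 0.56 in the ventral and -0.18 for the lateral lobe.

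Rises confined by call to the lateral lobe were fewer, 112 genes. Wfdc6a, a whey acidic protein domain protease inhibitor, read 6.32, 6.38 and 5.96 against 8.31, 8.48 and 8.46 in the lateral lobe, a 4.59-fold rise, and lay between 4.05 and 4.60 in all ventral arrays, at low signal. Anpep, aminopeptidase N, read 6.99, 6.85 and 6.87 against 8.44, 8.35 and 8.43 in the lateral lobe, and 10.38, 10.37 and 10.16 against 10.11, 10.28 and 9.86 in the ventral lobe. Anpep in the lateral knockout thus stood between the wild-type levels of the lobes, with an interaction of -1.73 ± 0.15 (limma adjusted p = 1.41e-05). Gipc2, a scaffold for membrane receptors, rose by 1.41 in the lateral lobe from 5.21, 5.05 and 4.92, where the ventral lobe read 8.41 or more on every array. Slc12a2, a sodium, potassium and chloride cotransporter, rose by 0.84 with all 3 probe sets passing and a ventral difference of -0.01. Atp13a4, a cation-transporting ATPase, rose by 1.89, and Syt10, a synaptotagmin, by 0.98. The uroplakins Upk1a and Upk3b, proteins of the bladder lining, rose by 0.68 and 0.73. The urothelium list mean was 6.29 to 6.48 in wild-type and 6.61 to 6.73 in knockout lateral arrays, and its part in these rises was not tested. Of the 112 genes 26 had low signal in both ventral groups (23.2%), a share not counted over all genes.

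Of 111 genes called in the same direction in both lobes, 13 passed the interaction. Elf5, an Ets factor of secretory epithelia, fell in both but far more in the lateral lobe, from 9.55, 9.53 and 9.85 to 5.76, 5.64 and 5.77, against 5.49, 5.42 and 5.34 to 4.47, 4.79 and 5.01 in the ventral lobe. Its interaction was 3.26 ± 0.18 (limma adjusted p = 2.17e-07). Scnn1a, the alpha subunit of the epithelial sodium channel, rose by 1.67 in the ventral lobe and 0.76 in the lateral one. Gstt1, a glutathione transferase, rose by 1.20 and 0.32, and Mgst1, a microsomal one, by 1.64 and 0.86, though a dim second probe set of Mgst1 did not bear this out. Defb13 fell by 0.47 and 1.47. Fam3b, a secreted cytokine-like protein, fell by 1.65 and 0.88, Pnliprp1, a lipase-related protein, by at least 2.60 and by 1.46, and Apof, an apolipoprotein, by 0.83 and 0.33. The call for Apof was lost when some single arrays were left out, and those for Pnliprp1 and Mgst1 without the 2 arrays named above. The Mgst1 call was also lost when its probe sets were averaged. Emb, a partner of lactate transporters chosen after its values were seen, shows the contrast. It rose by 2.12 and 2.44, and its interaction of -0.32 (95% interval -0.85 to 0.21) did not pass.

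In 390 genes the interaction passed although neither lobe did on its own. In all 390 the lobe estimates had opposite signs, which the selection itself requires. Estimates of the same sign, each too small to be called, cannot lie far enough apart for the interaction to pass. Slc30a10, a manganese exporter, read 7.29, 7.55 and 8.25 against 6.73, 6.36 and 7.35 in the ventral lobe and 6.12, 6.57 and 5.96 against 7.14, 7.38 and 6.85 in the lateral lobe. Both lobes missed narrowly (limma adjusted p = 0.0540 and 0.0679), and the interaction was -1.79 ± 0.37 (limma adjusted p = 0.00860). Tenm2, a teneurin adhesion protein, gave 0.68 and -0.81 and an interaction of 1.48 ± 0.31, which was lost when its 4 probe sets were averaged. The other probe sets of Tenm2 gave interactions of 0.32, -0.25 and -0.40, of both signs, and none of these passed. Chst10, a sulfotransferase, gave -0.52 and 0.54, and Ihh, the Indian hedgehog ligand, -0.34 and 0.55. Median lobe differences in this class were 0.29 and -0.32 for positive and -0.27 and 0.28 for negative interactions. Such calls rest on small differences in 3 arrays a group: Ihh, Ddit3 and Sestd1 lost theirs when 1 of several arrays was left out, and Phyhipl and Tent5b without the 2 arrays.

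A call in 1 lobe alone was not always joined by a passing interaction. Of 1391 genes called in the ventral lobe only, 712 passed the interaction and 679 did not. Of 655 called in the lateral lobe only, 428 passed and 227 did not. These 679 and 227 genes are not shown to act alike in the lobes, since a missed threshold does not show equal effects. On simulated arrays only 9 of 67 genes with an interaction of 0.5 were called. Far fewer genes passed there than in the data, so the adjusted threshold was stricter. Ventral calls numbered 1652 (9.08%) and lateral calls 916 (5.03%), and rises made up 1069 of the former and 294 of the latter. Over all genes the lobe differences were almost uncorrelated (Pearson r = -0.059, across genes, which are not independent replicates). Of the 18194 genes 15887 were called in neither lobe, so this value says little about the genes that changed. Among genes called in both lobes 111 went in the same and 150 in opposite directions. Arrays of the genotypes did not overlap in either lobe, and in opposite directions, for 1021 genes (5.61%), 699 (3.84%) with the knockout above in the ventral lobe and 322 (1.77%) the reverse. Knockout and wild-type arrays did not overlap in either direction for 29.4% of genes in the ventral lobe and 26.9% in the lateral one.

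Further lists are given by how many members passed as positive and as negative, beside 6.51% and 2.8% of all genes. Nerve and Schwann cell genes had 3 of 11 positive and 0 negative, with a median interaction of 0.52 and a lateral median of -0.56. Nefh, described above, was the largest, and the count was 1 without the 2 arrays and 1 to 3 with any single array left out. Proteases and their inhibitors had 8 of 30 positive and 4 negative, with a median of -0.02, and included Plau and Adam7 on one side and Mmp7, Wfdc6a and Anpep on the other. Innate antimicrobial genes had 4 of 21 positive and 3 negative, with a median of -0.04, and included Defb42, Lcn2 and Gsdmc2 against Defb1. Transcription factors of the Wolffian duct, the embryonic male tract, had 4 of 15 positive and 0 negative, with Emx2 and Hoxd13 among them and Osr1, a zinc finger factor of the urogenital mesoderm, at 1.05. Cytochrome P450 and eicosanoid genes had 4 of 26 positive and 0 negative, 3 of them Cyp4a12a, Cyp1b1 and Ptgds.

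Glutathione and antioxidant genes had 7 of 31 positive and 0 negative, and 4 and 0 without the 2 arrays. Gstm5 at 1.04, Gstm7 at 1.49 and Sod3, the extracellular superoxide dismutase, at 1.34 were each called in opposite directions. However, a dim second probe set of Gstm7 read near 0. The second probe set of Sod3 gave an interaction of 0.23 that did not pass, with a ventral difference of -0.10. Circadian clock genes had 4 of 17 positive and 0 negative, with 2 to 4 positive when single arrays were left out. Dbp, a clock output factor, read 9.56, 9.83 and 9.38 against 8.44, 8.71 and 7.81 in the lateral lobe and 9.18, 9.50 and 9.38 against 9.70, 9.54 and 9.59 in the ventral lobe, and Nr1d1, the repressor REV-ERB alpha, fell by 0.94 in the lateral lobe alone by call. The sources used here give no hour of dissection, and its part was not tested. Interferon response genes had 1 of 27 positive and 3 negative, 1 and 1 without the 2 arrays, with Stat2, which carries interferon signals to the nucleus, at -0.78 and Ifit2 at 0.83. Leukocyte genes had 3 of 25 positive and 1 negative, 1 and 0 without the 2 arrays, with Tyrobp, a myeloid adaptor, at 0.71, a call lost without them. Neuroendocrine markers had 2 of 7 positive, 0 to 2 with single arrays left out, and adipocyte markers 2 of 10. Luminal epithelium had 0 of 12 positive and 1 negative, Psca at -1.08, a surface antigen of prostate epithelium. Mediator subunits had 1 of 33, Med9 at 0.39, a call lost under most single-array omissions, and nuclear receptors 2 of 37, Nr1d1 and Rora, the latter lost without the 2 arrays or with probe sets averaged. The passing shares of these lists were 3.03% and 5.41%, beside 9.31% of all genes in either direction. Nr4a3, the orphan nuclear receptor described above, passed at 3.17 but is not among the 2 counted. The 5.41% thus does not cover every nuclear receptor. Oxidative phosphorylation had 1 of 41, although 37 of the 41 estimates were positive, with a median of 0.18. Cell cycle genes had 2 of 29 in each direction, and 1 and 0 without the 2 arrays.

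**Figure D5:**
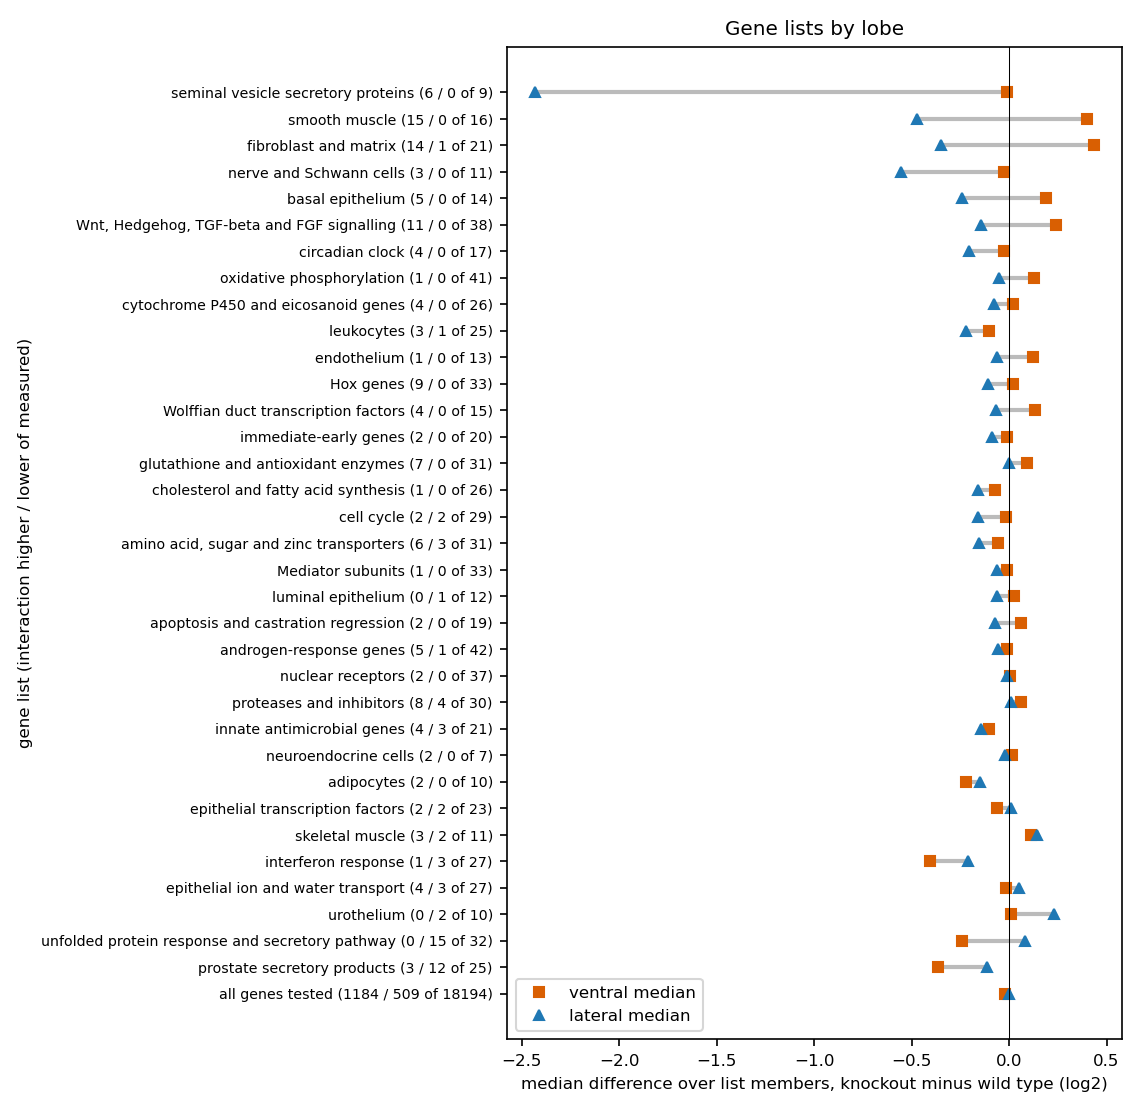
Median knockout minus wild-type difference (x axis, log2) over the measured genes of each list in the ventral lobe (orange squares) and lateral lobe (blue triangles), with the number of genes of positive and negative interaction in brackets and all genes tested at the bottom. Smooth muscle, at 0.40 and -0.47, and fibroblast genes, at 0.44 and -0.35, have medians on opposite sides of 0.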

How the data were processed

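Total RNA of ventral and lateral prostate was measured on single-colour Affymetrix expression arrays, 12 in all. The authors deposited log2 signals, which they obtained with RMA in Affymetrix Expression Console, per the submitters' processing notes. The sources used here give neither tool versions nor a genome build. Sorted signals varied by a median of 0.0493 among the 6 arrays of ventral tissue, by 0.0786 among the 6 of lateral tissue and by 0.388 among all 12, so each lobe seems to have been normalised on its own. A lobe-wide shift common to both genotypes cancels in the interaction.

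Of 45101 probe sets 34958 had 1 gene symbol in the platform annotation, 932 several and 9211 none listed. Symbols were updated by Entrez identifier through a RefSeq table (GRCm38.p6), which matched 34754. The probe set of highest mean stood for each of 18194 genes, and 9012 genes had others. limma 3.58.1 in R 4.3.3 fitted 4 group means over all 12 arrays (8 residual and 5.68 prior degrees of freedom), and the threshold was an adjusted p of 0.05 (Benjamini-Hochberg, over all genes). Errors are moderated standard errors and intervals are 95%. RMA gives no detection calls, so a group mean below the first quartile of its lobe's probe sets (4.73 ventral, 4.52 lateral) was called low signal, and a difference against it is written as at least its size.

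The genes named are Med1, the 14 largest positive and 14 largest negative interactions past the threshold, the 5 largest per sign in each pattern of lobe calls, and in each list the members of smallest p that passed, 4 at most. Uncharacterized loci were passed over. Gene names outside this rule were chosen after their values were seen: Acpp, Calr, Emb, Hspa5, Krt8, Krt18, Pate4, Svs2, Syvn1 and Wfdc15b. The 34 gene lists hold 819 genes, of which 750 were measured. The lists, motifs and named genes were chosen with earlier results of these data known, so they are described by counts and medians beside the share of all genes called.

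Simulated arrays took the residual spread of the 18194 genes and their group means with the interaction removed. A known interaction was then added through the knockout ventral group. The sign was called correctly for 9 of 67 genes given an interaction of 0.5, for 56 of 67 given 1 and for 65 of 66 given 2. Of the 17994 genes given none, 3 were called. Far fewer genes passed than in the data, so the adjusted threshold was stricter there. Arrays give no read depth, and their number limits the precision. The alternatives were replicate numbers as a block, all 12 arrays scaled together by quantiles or medians, the dimmest 40% of genes left out, averaged or most variable probe sets, other variance models and each array left out.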

Additional observations from a re-analysis of the deposited data

Results flagged for a closer look

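The difference between the lobes was tested directly, as the interaction, and every result given here is one in which the knockout effect of one lobe differed from that of the other by that test (limma, Benjamini-Hochberg adjusted over all genes). It passed for 1693 genes, and 150 genes were called in opposite directions. The values are interactions in log2 units and are given without explanation. Groups of 3 arrays are too small for a test of single outlying arrays.

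Among genes called in opposite directions, positive interactions were found for Gsdmc2 at 5.55, Ptgds at 3.62, Ces1d at 3.15, Bex4 at 2.94, Alox5ap at 2.85, Clca1 at 2.52, Hoxd8 at 2.28 and Actg2 at 1.63. Lower in size were Cyp1b1 at 1.49, Gstm7 at 1.49, Pdgfra at 1.41, Sod3 at 1.34, Mgp at 1.29, Cav1 at 1.28, Thy1 at 1.22 and Tnnc2 at 1.22. These were followed by Hhip at 1.11, Cnn1 at 1.09, Synm at 1.09, Col1a2 at 1.04, Gstm5 at 1.04, Tgfb3 at 0.97, Ptch1 at 0.80 and Bcl2 at 0.75. The negative ones among them were Myh4 at -2.22, Chodl at -1.56, Klk1b24 at -1.19, Erdr1 at -1.16 and Qsox1 at -0.99.

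Among genes called in the lateral lobe and not in the ventral lobe, positive interactions were found for Plau at 5.63, Cyp4a12a at 4.76, Nefh at 4.39, Defb42 at 4.30, Emx2 at 4.05, Svs4 at 3.98, Cdo1 at 3.69 and Nr4a3 at 3.17. Lower in size were Svs5 at 3.11, Foxi1 at 2.81, Svs6 at 2.78, Elovl6 at 2.32, Lcn2 at 2.10, Hoxd9 at 2.04, Ccnd1 at 1.71 and Lum at 1.71. These were followed by Dbp at 1.52, Svs3a at 1.36, Sva at 1.34, Osr1 at 1.05, Slc2a4 at 1.04, Acta1 at 0.88, Sgk1 at 0.85 and Nr1d1 at 0.78. In order of size came Hoxb3 at 0.77, Krt5 at 0.72, Tyrobp at 0.71, Hoxd13 at 0.67 and Rora at 0.51. The negative ones among them were Wfdc6a at -2.19, Anpep at -1.73, Syt10 at -1.70, Gipc2 at -1.61, Atp13a4 at -1.57, Slc12a2 at -0.85, Upk3b at -0.81 and Creld2 at -0.76. Lower in size were Upk1a at -0.66.

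Among genes called in the ventral lobe and not in the lateral lobe, positive interactions were found for Plscr2 at 2.03, Chl1 at 1.80, Adam7 at 1.73, Synpo2 at 1.70, Lgr5 at 1.42, Ifit2 at 0.83 and Steap4 at 0.50. The negative ones among them were Pate14 at -5.63, Smgc at -3.09, Fcgbp at -2.62, Rnase1 at -2.54, Tgm4 at -2.46, Slc7a12 at -2.34, Stra6 at -2.23 and Cckar at -2.18. Lower in size were Atp12a at -2.10, Mmp7 at -2.02, H2-Q10 at -2.01, Chn2 at -2.01, Derl3 at -1.57, Slc30a2 at -1.50, Pbsn at -1.31 and Gata2 at -1.21. These were followed by Psca at -1.08, Defb1 at -0.97, Stat2 at -0.78, Sdf2l1 at -0.68 and Sel1l at -0.54.

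Among genes called in the same direction in both lobes, positive interactions were found for Elf5 at 3.26, Defb13 at 1.00, Scnn1a at 0.91, Gstt1 at 0.87 and Mgst1 at 0.78. The negative ones among them were Pnliprp1 at -1.14, Fam3b at -0.78, Col6a3 at -0.59 and Apof at -0.50.

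Among genes called in neither lobe, positive interactions were found for Tenm2 at 1.48, Tent5b at 1.26, Phyhipl at 1.22, Sestd1 at 1.16 and Med9 at 0.39. The negative ones among them were Slc30a10 at -1.79, Chst10 at -1.05, Ihh at -0.88 and Ddit3 at -0.87.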

How the results depend on the processing

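Of the 144 genes past the threshold that the naming rule chose, 98 kept their call under every alternative run on them, and 0 changed direction. There were 23 alternatives, and 34 of the 144 genes had 22, since they were among the dimmest 40% of genes left out. Med1 passed, at -0.49, when its probe sets were averaged. Genes named outside the rule were not followed through the alternatives. Leaving out each array in turn gave 1102 to 1731 genes past the interaction threshold, 811 to 1191 higher, 291 to 563 lower and 73 to 163 with opposite calls. The arrays that moved a count by over 1.5 times were wild-type lateral array 3 (1102 past, 291 lower, 73 opposite), wild-type ventral array 3 (319 lower), wild-type lateral arrays 1 and 2 (92 and 98 opposite) and knockout lateral arrays 2 and 3 (73 and 98 opposite). Without both wild-type ventral array 3 and knockout lateral array 3 973 passed, 733 higher and 240 lower, with 72 opposite. The cause of these changes beyond the smaller number of arrays was not tested. Quantile normalisation over all arrays gave 1559 genes (63.2% higher, against 69.9%), sharing 1376 with the 1693, and other normalisation, filter, probe set and variance settings gave between 1585 and 1817.

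Residuals of arrays with the same replicate number correlated between -0.06 and 0.12, so the numbers were not taken to pair samples. With the number as a replicate block the count was 1558, with number within genotype as a fixed block 1323 with 335 lower, and as a random block 1654. The fixed block within genotype gives no lobe-wise calls, so no count of opposite calls. Array number and signal over background limit what can be read: 54 of 316 genes called lower in the lateral lobe alone had both ventral groups at low signal. The share over all genes was not counted beside it.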
